A study of Mus musculus with 6 samples.

Results

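The 54 genes described here carry out or control autophagy and the work of the lysosome. They were chosen by function, as the rows of a deposited expression table whose symbol matched a given list, and all 54 were found among its 52183 genes. The list falls into 5 role groups: 5 genes of the TFEB family and its lysosomal calcium channels, 22 of the autophagy core, 7 of the lysosomal proton pump, 6 of the lysosomal membrane and 14 hydrolases and their activators. The table gives mRNA levels in sorted haematopoietic stem cells, the bone marrow cells from which all blood cells derive. There were 3 libraries from control mice and 3 from mice labelled as Thbs1 knockout, all of them female and 4 months old. The labels do not say how Thbs1, the gene for the secreted matrix protein thrombospondin-1, was deleted, what allele or agent the controls carried, or whether each library came from a separate animal. The p-values below therefore measure only the spread between these libraries, part of which may be technical.

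Autophagy encloses cytoplasm or damaged organelles in a double membrane and delivers it to the lysosome, an acidic organelle whose hydrolases break the content down. A kinase complex around ULK1 starts the process, a lipid kinase complex with Beclin 1 marks the site, and ubiquitin-like conjugation attaches proteins of the ATG8 family to the growing membrane. TFEB, TFE3 and MITF are related transcription factors that bind the DNA letters CACGTG (the E-box core), often with a T before them, as in TCACGTG (the TFE motif), upstream of lysosomal and autophagy genes. Nutrient signalling through mTORC1 at the lysosome holds TFEB in the cytoplasm. In haematopoietic stem cells, autophagy and the lysosome are known for their part in clearing mitochondria and in keeping the cells quiescent.

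Levels are given in FPKM, which divides the fragments of a gene by its exon length and by the size of the library, so that they are per length and can be set side by side between genes. The depth recovered from the steps between low values was 22710000 to 25950000 reads in the control libraries and 25760000 to 30900000 in the knockout-labelled ones. FPKM times the annotated exon length summed to 1.0666 to 1.0692 times the total that the unit implies, so depths and read numbers are approximate. Across tested genes, the correlation of log2 values was 0.983 to 0.987 within a group and 0.977 to 0.983 between groups. Of 14 stem cell markers, 13 averaged at least 1 FPKM. Ly6a was called lower in the knockout-labelled libraries (115 ± 6.78 and 76.9 ± 11.1 FPKM, SD, n = 3 each, adjusted p = 0.0286 by limma). A further 5 did not overlap between the groups but were not called, Slamf1 and Hlf lower and Procr, Fgd5 and Tek higher (adjusted p 0.0857 to 0.33 by limma). Of all tested genes, 1.56% were called and 22.8% did not overlap. Thbs1 itself measured 4.12, 13.8 and 2.33 FPKM in the control libraries and 10.8, 8.50 and 7.68 in the knockout-labelled ones, so its level did not bear out the label (p = 0.5 in an exact permutation test, two-sided, whose smallest possible p is 0.1). Without control replicate 2, the highest control, the log2 difference of Thbs1 was 1.26 and passed the limma test (adjusted p = 0.0343), with the higher level in the libraries labelled knockout. Directions below follow the labels alone.

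Stem cells expressed nearly the whole set. Of the 54 genes, 53 reached 1 FPKM in 3 or more libraries and entered the test; Mitf was the exception. Their median level was 18.3 FPKM, against 8.81 for all 12555 tested genes, and 13 of 53 lay above 52.7 FPKM, the 90th percentile of tested genes. The 5 genes above 100 FPKM were Cd63, Gabarap, Psap, Lamp1 and Gabarapl1. Among these 5 neighbours in the order of levels, Cd63 (a tetraspanin of late endosomes), Gabarap and Psap overlapped in their libraries, as did Lamp1 and Gabarapl1. Between 90 and 17563 reads lay behind each value. Per-length levels rest on all annotated exons of a gene, so a gene with long, seldom used exons reads low.

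**Figure D1:**
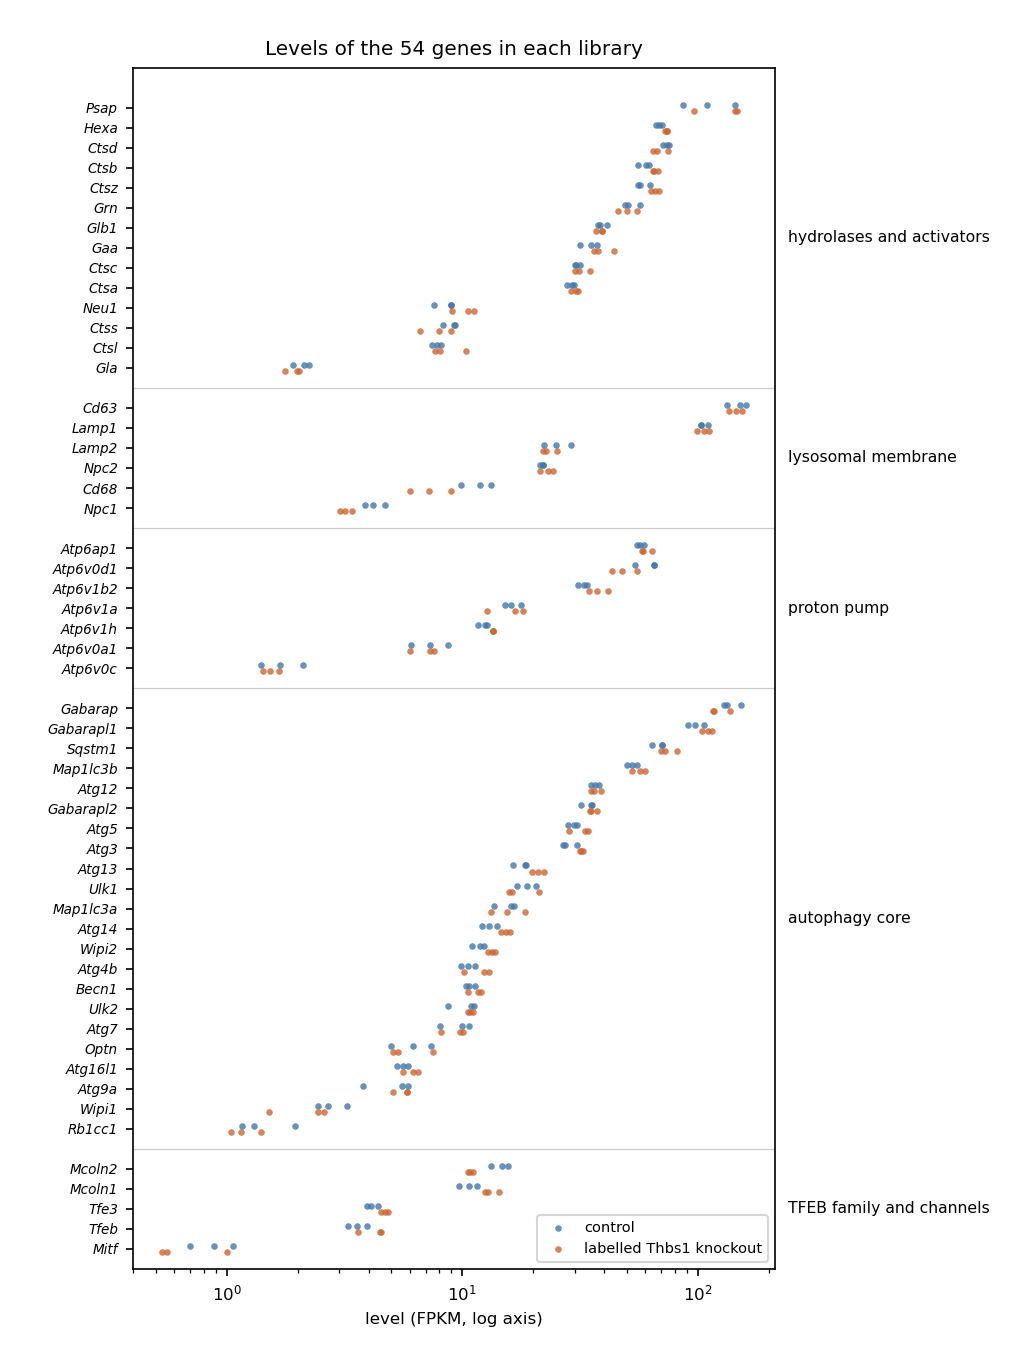
Level of each gene in every library, in FPKM on a log axis, grouped by role, with control and knockout-labelled libraries in separate colours. Levels run from below 1 FPKM for Mitf to over 100 FPKM for Cd63, Gabarap, Psap, Lamp1 and Gabarapl1, and the points of the 2 groups lie close together for most genes.

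Between the groups no gene of the set was called different. None of the 53 tested genes passed the threshold of 0.05 on the adjusted p of limma over all genes, where 1.56% of all tested genes did (0.566% higher and 0.996% lower in the knockout-labelled libraries). An unadjusted p below 0.05 was found for 10 of 53 (18.9%), against 16.4% of all tested genes. Of these 10, 6 were higher and 4 lower, against 8.92% and 7.46% of all tested genes. The unadjusted share is near the background and is no result about the set. Groups did not overlap for 15 of 53 genes (28.3%), against 22.8% of all tested genes. Of those 15, 12 were higher and 3 lower in the knockout-labelled libraries, while 12.6% of all tested genes were without overlap and higher and 10.1% without overlap and lower. Fitted log2 differences, which are knockout-labelled minus control on log2(FPKM + 1), had a median of 0.07 over the set and 0.01 over all tested genes. Of the 53, 33 were above 0 and 20 below, beside 6704 and 5851 of all 12555 tested genes; on the TPM scale described next, 47 of 54 were above 0. The differences ran from -0.60 for Cd68 to 0.29 for Mcoln1, and 47 of 53 were smaller than 0.25 in either direction. The standard error was between 0.06 for Hexa and 0.20 for Psap. A p that misses the threshold does not show that levels were equal.

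A rescaling of each library to a sum of 1000000 (TPM) gave other counts. The FPKM of the control libraries summed to 373903 to 408725 and those of the knockout-labelled ones to 329434 to 339652. On that scale the median difference of all tested genes moved to 0.19, and that of the set to 0.27. There, 15 of 54 genes (27.8%) passed the test, all in the higher direction, where 14% of all tested genes were called and 13.2% were called higher. This setting also let more genes into the test, 15277 in all. Differences below are on the FPKM scale unless TPM is named.

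**Figure D2:**
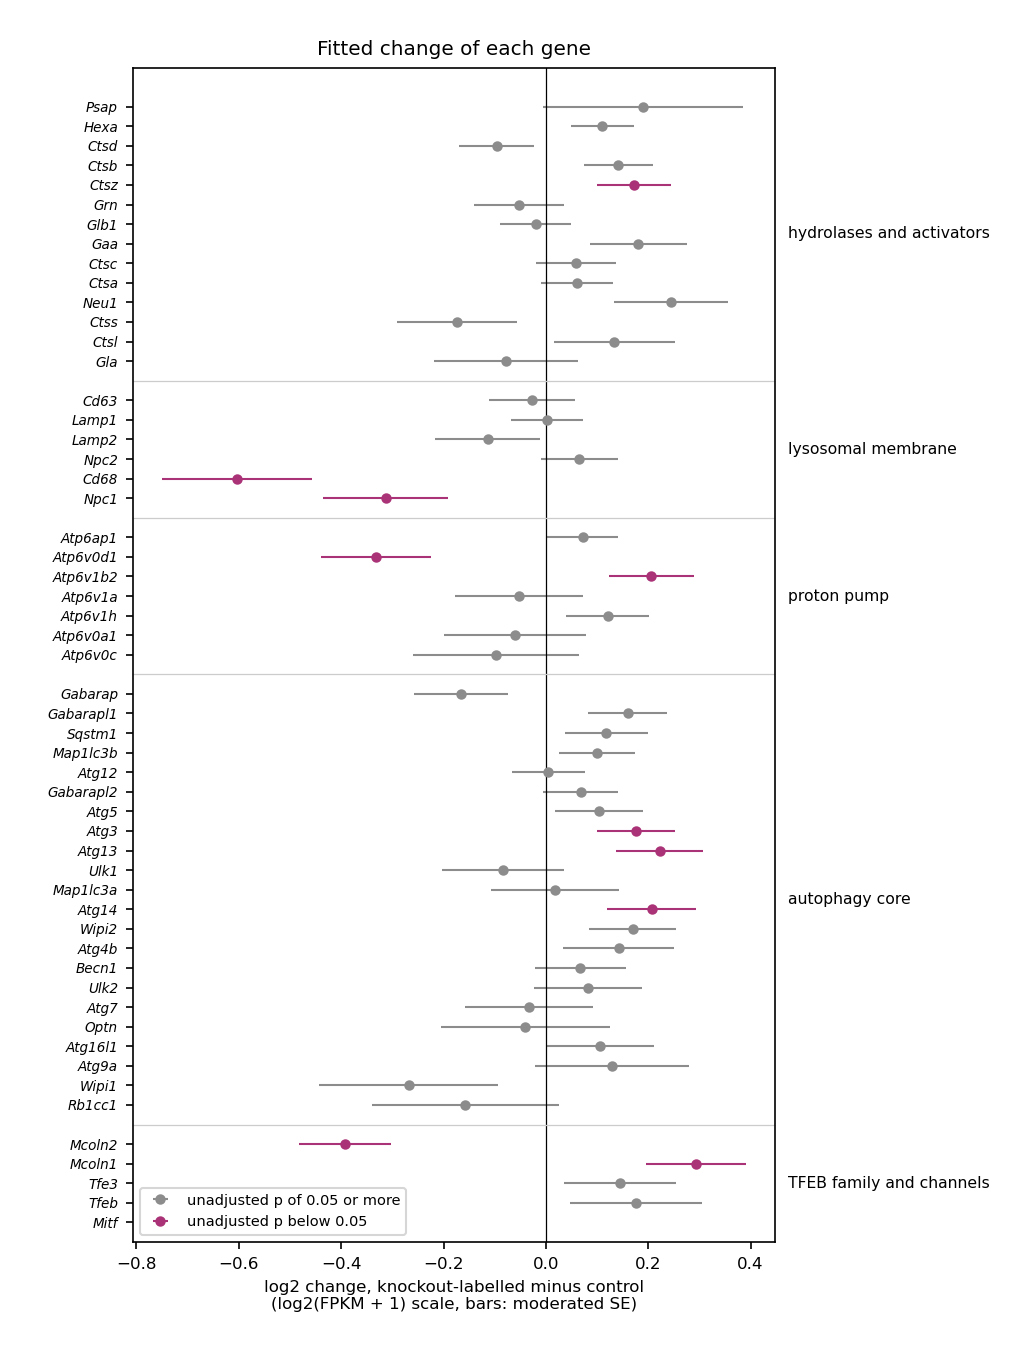
Fitted log2 difference of each tested gene, knockout-labelled minus control on log2(FPKM + 1), with bars of 1 standard error, by role group; Mitf was not tested and has no point. Most points lie within 0.25 of 0, with Cd68 and Mcoln2 lowest and Mcoln1 highest.

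Among the TFEB family and the lysosomal calcium channels, the 2 channels had fitted differences of opposite sign, and the 3 transcription factors were at low levels. Mcoln1 encodes TRPML1, the channel that releases calcium from the lysosome, and Mcoln2 encodes its relative TRPML2. Their upstream sequences are shown because the pair stands at the 2 ends of this group, with the E-box core or the longer TFE motif in capitals. All sequences are RefSeq promoters of GRCm38.p6, printed 5′ to 3′ on the strand of the gene, with -1 the base before the RefSeq start.
Mcoln1, chr8:3500269-3500456, plus strand, from -250 to -63: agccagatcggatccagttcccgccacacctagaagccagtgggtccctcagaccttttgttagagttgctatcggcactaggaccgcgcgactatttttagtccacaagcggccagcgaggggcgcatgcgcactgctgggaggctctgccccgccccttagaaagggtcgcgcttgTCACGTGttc
Mcoln1, chr8:3500462-3500491, plus strand, letters from -46: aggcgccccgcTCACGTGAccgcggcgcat
Mcoln2, chr3:146150007-146150173, plus strand, from -167 to -1: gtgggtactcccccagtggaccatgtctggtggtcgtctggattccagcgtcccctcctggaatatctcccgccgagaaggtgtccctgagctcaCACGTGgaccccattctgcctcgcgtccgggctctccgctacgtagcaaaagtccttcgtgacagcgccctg
Mcoln1 (chr8:3500457-3515232) holds a TFE motif in the longer stretch and an 8-base palindrome of it nearer the start. Mcoln2 (chr3:146149833-146195513) holds the 6-letter core alone, next to letters that do not extend it.

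Mcoln2 was at 14.8, 13.3 and 15.6 FPKM in the control libraries and at 11.2, 10.6 and 10.8 in the knockout-labelled ones. Every knockout-labelled library lay below every control library. The means were 14.5 ± 1.18 and 10.8 ± 0.309 FPKM (SD, n = 3 each), a log2 difference of -0.39 ± 0.09 (SE), which missed the threshold with the lowest adjusted p of the set, 0.072 by limma. Mcoln1 was at 11.6, 10.7 and 9.65 FPKM in the control libraries and at 12.6, 12.9 and 14.3 in the knockout-labelled ones, where every library was higher than every control. The means were 10.6 ± 0.956 and 13.2 ± 0.959 FPKM (SD, n = 3 each), a log2 difference of 0.29 ± 0.10 (SE; adjusted p = 0.178 by limma). The order of the pair in FPKM turned. The ratio of Mcoln1 to Mcoln2 was 0.781, 0.806 and 0.619 in the control libraries and 1.12, 1.22 and 1.33 in the knockout-labelled ones. This ratio was chosen after the values were seen and is a description with no test. Being taken within a library, it does not depend on the scale of the library. Which gene is higher does depend on the exon lengths used, 7555 bases for Mcoln1 and 3288 for Mcoln2. In reads, Mcoln1 was above Mcoln2 in every library.

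Tfeb, the best known regulator of lysosomal genes, measured 3.58, 3.93 and 3.28 FPKM in the control libraries and 4.48, 4.51 and 3.62 in the knockout-labelled ones, with overlap (log2 difference 0.18 ± 0.13 SE, adjusted p = 0.543 by limma). Tfe3, its closest partner here, was at 4.08, 3.96 and 4.39 FPKM in the controls and at 4.70, 4.82 and 4.54 in the knockout-labelled libraries. The Tfe3 groups did not overlap, yet the difference of 0.15 ± 0.11 (SE) was far from the threshold (adjusted p = 0.556 by limma). Mitf, a regulator of mast cells and melanocytes, had the lowest level of the set at 1.06, 0.70 and 0.88 FPKM in the controls and 0.53, 0.56 and 1.00 in the knockout-labelled libraries. The Mitf groups overlapped, and 90 to 170 reads lay behind its values. The order Tfe3, Tfeb, Mitf held in all 6 libraries.

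**Figure D3:**
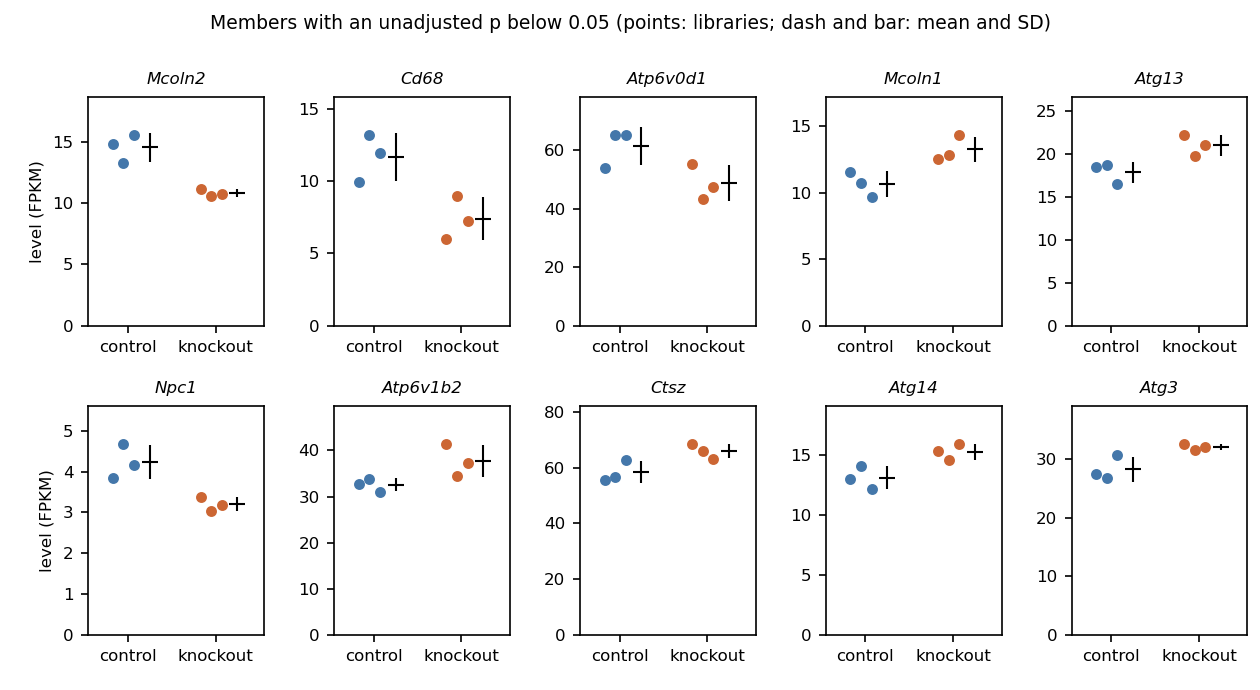
The 10 genes with an unadjusted limma p below 0.05, each in a panel of its own with the FPKM of every library as points, the group mean as a dash and its SD as a bar; knockout on the axis means labelled knockout. The groups do not overlap in any panel except that of Atp6v0d1, where the lowest control library lies below the highest knockout-labelled one.

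In the autophagy core, 16 of 22 genes had a fitted difference above 0 and 6 below, with a median of 0.09. Of all 12555 tested genes, 6704 were above 0 and 5851 below. None of the 22 passed the test by limma. An unadjusted p below 0.05 was found for 3 of them (13.6%, against 16.4% of all tested genes), all higher in the knockout-labelled libraries. These were Atg13, Atg14 and Atg3. Atg13, a scaffold of the ULK1 kinase complex, was at 18.5, 18.7 and 16.4 FPKM in the controls and at 22.2, 19.8 and 21.0 in the knockout-labelled libraries, without overlap. Its means were 17.8 ± 1.23 and 21.0 ± 1.22 FPKM (SD, n = 3 each), a log2 difference of 0.22 ± 0.08 (SE; adjusted p = 0.228 by limma). Atg13 lies 26.4 Mb from Thbs1 on chromosome 2; the other members on that chromosome, Optn, Map1lc3a, Ctsa and Ctsz, lie 37.1 to 113.0 Mb from it. Over all 6 libraries Atg13 had the highest mean of the 9 initiation and nucleation genes, though Ulk1 was above it in each control library (20.5, 18.8 and 17.1 FPKM). The lowest level was that of Rb1cc1, which encodes the scaffold FIP200, at 1.94, 1.16 and 1.30 FPKM in the controls and 1.15, 1.04 and 1.40 in the knockout-labelled libraries, with overlap. Ulk1 and Ulk2, the starting kinases, and Becn1 overlapped between the groups (adjusted p 0.760 to 0.786 by limma).

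Atg14, the subunit that sends the Beclin 1 lipid kinase complex to the site of autophagosome formation, and Atg3, the enzyme that passes ATG8 proteins to lipid, both hold the TFE motif. They are shown because they are the 2 of these 3 genes with it.
Atg14, chr14:47568418-47568447, minus strand, letters from -1: aaaacaaaatccCACGTGActggccctgag
Atg3, chr16:45158722-45158751, plus strand, letters from -95: ggcctccttttgTCACGTGtcctgggagag
Atg3, chr16:45158746-45158775, plus strand, letters from -72: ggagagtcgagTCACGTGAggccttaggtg
Atg14 was at 13, 14.1 and 12.2 FPKM in the controls and at 15.3, 14.6 and 15.9 in the knockout-labelled libraries. Each knockout-labelled library was above each control, with means of 13.1 ± 0.969 and 15.3 ± 0.671 FPKM (SD, n = 3 each) and a log2 difference of 0.21 ± 0.09 (SE; adjusted p = 0.278 by limma). Atg3 was at 27.4, 26.8 and 30.8 FPKM in the controls and at 32.6, 31.5 and 32.1 in the knockout-labelled libraries, again without overlap. Its means were 28.3 ± 2.14 and 32.1 ± 0.540 FPKM (SD, n = 3 each), a log2 difference of 0.18 ± 0.08 (SE; adjusted p = 0.291 by limma). Of the other conjugation genes, Atg12, the ubiquitin-like protein joined to ATG5, had the highest level, at 35.1, 38.3 and 36.5 FPKM in the controls and 35.3, 36.3 and 38.7 in the knockout-labelled libraries. Its groups overlapped fully, and its highest library was 1.10 times its lowest, the narrowest range of the set. Atg16l1, the partner of ATG5 and ATG12 at the membrane, had the lowest level, at 5.88, 5.31 and 5.59 FPKM in the controls and 5.62, 6.21 and 6.48 in the knockout-labelled libraries, with overlap.

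The ATG8 family, the proteins that are attached to the autophagosome membrane and recognised by cargo receptors, was the most abundant part of the autophagy core. The 5 genes summed to 318, 338 and 361 FPKM in the controls and to 367, 334 and 322 in the knockout-labelled libraries, with overlap. Gabarap led in FPKM in all 6 libraries. It was at 129, 133 and 153 FPKM in the controls and 137, 116 and 117 in the knockout-labelled ones, with overlap. Its means were 138 ± 13 and 123 ± 11.7 FPKM (SD, n = 3 each), a log2 difference of -0.17 ± 0.09 (SE; adjusted p = 0.41 by limma) that turned to 0.037 on the TPM scale. Gabarapl1 came next, at 90.8, 97.8 and 106 FPKM in the controls and 115, 111 and 104 in the knockout-labelled libraries. Only the highest control overlapped with the knockout-labelled libraries (0.16 ± 0.08 SE, adjusted p = 0.347 by limma). Map1lc3b, which encodes the LC3B protein used as the usual marker of autophagosomes, was at 50 to 55.3 FPKM in the controls and 52.7 to 59.9 in the knockout-labelled libraries. The order of Gabarap and Map1lc3b rests on the exon lengths used, 1844 and 7517 bases. In reads, Map1lc3b was above Gabarap in every library. Map1lc3a was lowest of the family at 16.6, 16.1 and 13.7 FPKM in the controls and 18.6, 15.5 and 13.2 in the knockout-labelled libraries, with overlap. Gabarapl2 lay between the LC3 genes, at 31.9 to 37.4 FPKM over all 6 libraries.

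The sums overlapped between the groups, while the shares of 2 genes did not. Gabarap was 40.5%, 39.5% and 42.4% of the ATG8 sum in the controls and 37.3%, 34.8% and 36.3% in the knockout-labelled libraries. Gabarapl1 was 28.6%, 29.0% and 29.4% in the controls and 31.2%, 33.2% and 32.3% in the knockout-labelled libraries. Neither share overlapped between the groups, and the shares of Map1lc3a, Map1lc3b and Gabarapl2 did. Shares of 1 sum are linked, these were set beside each other after the values were seen, and they carry no test. The size of each share also rests on the exon lengths behind FPKM. Near-identical processed pseudogenes limit 2 of the genes. Gabarapl2 shares 99.4% of 349 bases with Gm3724 (1.61 to 5.12 FPKM), and Map1lc3b shares 99.6% of 282 bases with Gm6055 (6.61 to 8.82 FPKM), so reads could be split between copies.

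**Figure D4:**
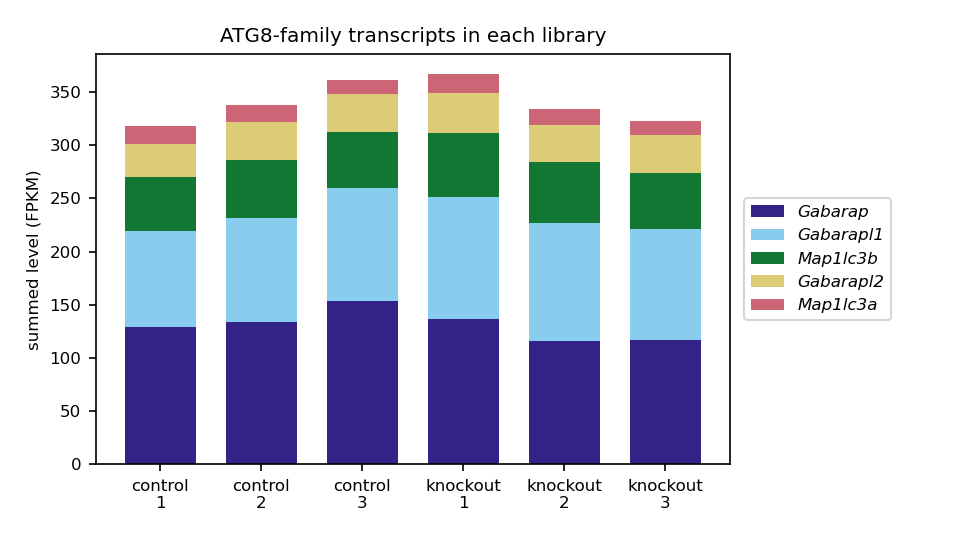
Stacked levels of the 5 ATG8 genes, in FPKM, in each control library and each library labelled knockout; the height of a bar is their sum. Sums run from 318 to 361 FPKM in the controls and 322 to 367 in the knockout-labelled libraries, and Gabarap, at the base, takes 39.5% to 42.4% of the bar in the controls and 34.8% to 37.3% in the knockout-labelled libraries.

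The 2 cargo receptors lay far apart in level. Sqstm1, which encodes p62 and ties ubiquitinated cargo to ATG8 proteins, was at 70.9, 70.7 and 63.9 FPKM in the controls and 81.6, 69.6 and 72.3 in the knockout-labelled libraries. Its groups overlapped (0.12 ± 0.08 SE, adjusted p = 0.513 by limma). Optn, the receptor optineurin, was at 7.34, 6.18 and 4.96 FPKM in the controls and 7.48, 5.10 and 5.35 in the knockout-labelled libraries, also with overlap.

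The lysosomal proton pump, a rotary ATPase with a membrane part named V0 and a catalytic part named V1, had 3 genes above 0 and 4 below. None passed the test by limma, and 1 gene in each direction had an unadjusted p below 0.05 (28.6%, against 16.4% of all tested genes). The median of the group was -0.05, and it turned to 0.003, 0.053 and 0.088 without control replicate 1, control replicate 2 and knockout-labelled replicate 2, so it has no settled sign. Atp6v0d1, the stalk subunit of V0, and Atp6v1a, the catalytic subunit of V1, hold the 8-base palindrome and are shown as the pump genes in which it was found.
Atp6v0d1, chr8:105566050-105566079, minus strand, letters from -4: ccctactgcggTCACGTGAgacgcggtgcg
Atp6v1a, chr16:44139373-44139402, minus strand, letters from -132: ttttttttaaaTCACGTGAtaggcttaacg
Atp6v0d1 was at 54.1, 65.3 and 65.2 FPKM in the controls and at 55.5, 43.2 and 47.6 in the knockout-labelled libraries, so that control replicate 1 lay below knockout-labelled replicate 1. The means were 61.5 ± 6.48 and 48.7 ± 6.23 FPKM (SD, n = 3 each), a log2 difference of -0.33 ± 0.11 (SE; adjusted p = 0.168 by limma). Atp6v1b2, the subunit that pairs with the catalytic one in V1, went the other way, at 32.8, 33.8 and 31.0 FPKM in the controls and 41.4, 34.5 and 37.4 in the knockout-labelled libraries, without overlap. Its means were 32.5 ± 1.43 and 37.8 ± 3.45 FPKM (SD, n = 3 each), a log2 difference of 0.21 ± 0.08 (SE; adjusted p = 0.257 by limma). Atp6v1a was at 17.8, 16.2 and 15.3 FPKM in the controls and 16.8, 12.8 and 18.1 in the knockout-labelled libraries, with overlap. Atp6v1h, a regulatory subunit of V1, was at 12.5, 12.8 and 11.7 FPKM in the controls and at 13.5 in each of the 3 knockout-labelled libraries, without overlap (0.12 ± 0.08 SE, adjusted p = 0.503 by limma).

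Atp6ap1, an accessory protein needed for pump assembly, was at 56.9, 59.3 and 55.3 FPKM in the controls and 63.8, 58.6 and 57.9 in the knockout-labelled libraries, with overlap. It had the highest mean of the pump genes over all 6 libraries, though in the controls the mean of Atp6v0d1 was higher. Atp6v0c, the proton-carrying ring subunit, had the lowest, at 1.40, 2.10 and 1.69 FPKM in the controls and 1.53, 1.66 and 1.43 in the knockout-labelled libraries. That level is uncertain: the pseudogene Atp6v0c-ps2 shares 99.7% of 387 bases with it and was listed at 2.65, 2.61 and 3.22 FPKM in the controls and 3.55, 5.12 and 4.09 in the knockout-labelled libraries, above Atp6v0c in all 6.

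Of the 6 lysosomal membrane and cholesterol transport genes, 2 were above 0 and 4 below (median -0.07), and none passed the test by limma. Cd68 and Npc1 had an unadjusted p below 0.05 (33.3%, against 16.4% of all tested genes). Both were lower in the knockout-labelled libraries without overlap. Lamp1, a main glycoprotein of the lysosomal membrane, and Cd68, a LAMP relative best known as a macrophage marker, are shown because Lamp1 has the most motifs of the set and Cd68 the largest difference.
Lamp1, chr8:13158911-13159160, plus strand, from -250 to -1: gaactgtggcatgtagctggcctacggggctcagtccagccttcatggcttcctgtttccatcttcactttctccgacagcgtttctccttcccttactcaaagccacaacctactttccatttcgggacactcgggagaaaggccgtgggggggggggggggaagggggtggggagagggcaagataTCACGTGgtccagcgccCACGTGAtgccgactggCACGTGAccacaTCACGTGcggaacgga
Cd68, chr11:69666171-69666420, minus strand, from -250 to -1: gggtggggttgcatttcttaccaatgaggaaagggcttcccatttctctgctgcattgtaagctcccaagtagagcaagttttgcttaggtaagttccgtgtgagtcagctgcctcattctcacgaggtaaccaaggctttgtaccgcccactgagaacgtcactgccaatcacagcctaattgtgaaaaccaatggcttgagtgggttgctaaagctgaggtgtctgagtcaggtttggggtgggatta
The 250 bases before the start of Lamp1 hold 4 TFE motifs within a short stretch, and those of Cd68 hold no E-box core. Lamp1 was at 103, 110 and 103 FPKM in the controls and 106, 112 and 99.3 in the knockout-labelled libraries, a log2 difference of 0.00 ± 0.07 (SE; adjusted p = 0.993 by limma). Cd68 was at 9.93, 13.2 and 11.95 FPKM in the controls and at 6.0, 8.96 and 7.23 in the knockout-labelled libraries. All knockout-labelled libraries lay below all controls. The means were 11.7 ± 1.66 and 7.40 ± 1.49 FPKM (SD, n = 3 each), from 233 to 384 reads a library, and the log2 difference of -0.60 ± 0.15 (SE) was the largest of the set in either direction (adjusted p = 0.0857 by limma). Cd68 and Mcoln2 passed the threshold where fewer genes were tested, with adjusted p of 0.0395 and 0.046 among protein-coding genes alone and 0.0462 and 0.0467 among genes with a mean of at least 5 FPKM. In those 2 settings 2.7% and 3.22% of all genes were called, against 3.77% and 4.35% of the members. Both genes missed it in every other setting tried, with adjusted p of 0.0536 to 0.338 for Cd68 and 0.0626 to 0.215 for Mcoln2.

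Since Cd68 marks macrophages, the 18 macrophage and monocyte markers belong beside it. Of these, 12 averaged below 1 FPKM, with Csf1r at 0.04 to 0.33 and Adgre1 at 0.06 to 0.42 over the 6 libraries, and none was at 0 in every library. The 12 did not enter the test, and none of the other 6 was called in either direction by limma. The markers summed to 363 to 402 FPKM in the controls and 342 to 373 in the knockout-labelled libraries, nearly all of it Lyz2 (325 to 383). Without Lyz2 the sum was 19.5, 20.0 and 19.0 FPKM in the controls and 14.1, 15.8 and 17.1 in the knockout-labelled libraries, lower without overlap, as Cd68 was. Sums of other marker lists were lower without overlap too. The megakaryocyte sum was 391 to 494 FPKM in the controls and 272 to 380 in the knockout-labelled libraries. The erythroid sum was 50.7 to 54.2 and 39.7 to 45.9 FPKM, and the T and NK cell sum 75.2 to 102 and 52.5 to 64.2. The B cell sum was 31.0 to 32.3 and 25.6 to 30.7 FPKM. In each of these lists 1 gene stood out as lower: Pf4, Hbb-bt, Nkg7 and Cd79b in turn. Their control and knockout-labelled means were 315 and 189, 14.8 and 4.06, 88.6 and 54.6, and 28.1 and 24.4 FPKM. Hbb-bt and Nkg7 were called lower (adjusted p = 0.00247 and 0.0332 by limma). Pf4 and Cd79b were not called (adjusted p = 0.0594 and 0.239 by limma). Every other gene of these lists overlapped between the groups, apart from Slc4a1, at 0 to 0.03 FPKM. Sums of the stem cell, neutrophil, dendritic, mast and basophil, and endothelial and stromal lists overlapped between the groups. Spic, a factor of red pulp and bone marrow macrophages, was at 2.54, 3.77 and 3.31 FPKM in the controls and 2.50, 1.69 and 1.68 in the knockout-labelled libraries (-0.51 ± 0.17 SE, adjusted p = 0.185 by limma). The other macrophage and monocyte markers that entered the test, Lyz2, C1qa, C1qb, C1qc and Cd163, overlapped between the groups (adjusted p 0.485 to 0.945 by limma). The mean of C1qb was 4.58 FPKM in the controls and 4.72 in the knockout-labelled libraries. The part of these markers in the Cd68, Npc1 and Mcoln2 values was not tested. In bulk libraries, fewer cells of a type and less RNA per cell cannot be told apart.

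Npc1, which moves cholesterol out of the lysosome, was at 3.85, 4.68 and 4.16 FPKM in the controls and 3.39, 3.04 and 3.18 in the knockout-labelled libraries, the lowest level of the membrane genes. Its means were 4.23 ± 0.419 and 3.20 ± 0.176 FPKM (SD, n = 3 each), a log2 difference of -0.31 ± 0.12 (SE; adjusted p = 0.24 by limma). Npc2, the soluble partner that hands cholesterol to it, was at 21.5 to 22.1 FPKM in the controls and 21.5 to 24.2 in the knockout-labelled libraries, with overlap (0.07 ± 0.08 SE, adjusted p = 0.725 by limma). Cd63 was the most abundant gene of the set, at 134, 151 and 160 FPKM in the controls and 154, 145 and 136 in the knockout-labelled libraries. Its groups overlapped, as did those of Lamp2, the receptor of chaperone-mediated autophagy, at 22.3 to 28.9 and 21.9 to 25.3 FPKM. Npc1 shares 511 exon bases with Rmc1 on the other strand (mean 11.0 FPKM), and the library kit does not mark strand, so reads there cannot be told apart.

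Among the 14 hydrolases and activators, 9 had a difference above 0 and 5 below (median 0.09), and none passed the test by limma. The single gene with an unadjusted p below 0.05 (7.14%, against 16.4% of all tested genes) was Ctsz. The palindromes of 3 hydrolase promoters are shown, since 2 of them, Ctsa and Gla, hold it in 2 places.
Ctsd, chr7:142387908-142387937, minus strand, letters from -99: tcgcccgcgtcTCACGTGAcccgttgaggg
Ctsa, chr2:164833749-164833778, plus strand, letters from -13: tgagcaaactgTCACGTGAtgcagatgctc
Ctsa, chr2:164833766-164833795, plus strand, letters from 5: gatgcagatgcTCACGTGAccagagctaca
Gla, chrX:134601215-134601244, minus strand, letters from -228: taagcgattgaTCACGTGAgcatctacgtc
Gla, chrX:134601182-134601211, minus strand, letters from -195: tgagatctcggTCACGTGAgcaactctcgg
Ctsd, the main aspartic protease of the lysosome, had the highest mean of the 7 cathepsins, at 71.1, 74.0 and 75.4 FPKM in the controls and 74.5, 67.2 and 64.6 in the knockout-labelled libraries, with overlap (-0.10 ± 0.07 SE, adjusted p = 0.563 by limma). Ctsz, an exopeptidase, was at 55.7, 56.9 and 62.9 FPKM in the controls and 68.6, 66.1 and 63.3 in the knockout-labelled libraries. Its groups did not overlap, though control replicate 3 and knockout-labelled replicate 3 lay close together. The means were 58.5 ± 3.88 and 66.0 ± 2.64 FPKM (SD, n = 3 each), a log2 difference of 0.17 ± 0.07 (SE; adjusted p = 0.278 by limma). Ctsb, a cysteine protease, was at 56.0, 62.0 and 60.5 FPKM in the controls and 67.8, 65.0 and 64.4 in the knockout-labelled libraries, also without overlap (0.14 ± 0.07 SE, adjusted p = 0.345 by limma). Part of Ctsb, 774 exon bases, lies on exons of Fdft1 on the other strand (mean 11.8 FPKM). Ctsl, another cysteine protease, had the lowest mean over all 6 libraries, though Ctss was lower in the knockout-labelled ones (mean 7.86 against 8.69 FPKM). Ctsl was at 7.43, 8.11 and 7.78 FPKM in the controls and 10.3, 8.04 and 7.69 in the knockout-labelled libraries, with overlap.

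Psap encodes prosaposin, which is cut into the saposins that help hydrolases reach sphingolipids. It was at 144, 86.6 and 110 FPKM in the controls and 147, 96.6 and 144 in the knockout-labelled libraries. The spread within each group, 114 ± 29.1 and 129 ± 28.2 FPKM (SD, n = 3 each), was wider than the difference between them (0.19 ± 0.20 SE, adjusted p = 0.685 by limma). Hexa, a subunit of beta-hexosaminidase, was among the steadiest genes, at 66.7, 70.2 and 68.2 FPKM in the controls and 74.4, 72.8 and 74.4 in the knockout-labelled libraries, without overlap (0.11 ± 0.06 SE, adjusted p = 0.415 by limma). Neu1, the sialidase that works in a complex with cathepsin A, was at 9.0, 8.97 and 7.61 FPKM in the controls and 11.3, 10.6 and 9.05 in the knockout-labelled libraries. Its groups just failed to overlap (0.24 ± 0.11 SE, adjusted p = 0.314 by limma). Gla, the galactosidase missing in Fabry disease, had the lowest level of the glycosidases, at 2.23, 1.91 and 2.12 FPKM in the controls and 2.02, 1.99 and 1.76 in the knockout-labelled libraries, with overlap.

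The share of genes with a TFE motif in a promoter was larger in the set than among genes at large. The motif is known from lysosomal and autophagy genes, the kind chosen for the set, so the larger share is no independent finding. The RefSeq table gives 250 bases before and 50 after each start, and 45 of the 54 genes matched it, with 54 promoters between them; the 8999 tested genes in it had 11424 and all 27025 genes had 32851. TCACGTG, read on both strands, was in at least 1 promoter of 12 of the 45 genes (26.7%, exact binomial 95% interval 14.6% to 41.9%), against 7.25% of tested genes and 4.29% of all genes. The 6-letter core CACGTG, which every longer form contains, was in 15 (33.3%), against 12% and 8.09%. The palindrome TCACGTGA, added after the data were seen, was in 7 (15.6%), against 2.37% and 1.12%. The 10-base CLEAR palindrome, which extends it on both sides, was in none of the 45, which allows up to 7.87% by the exact binomial interval, against 0.878% and 0.37%. Median GC content was 59.2% in the set and 60.7% in promoters of tested genes. The motif did not separate the differences between groups: the 12 genes with TCACGTG had 6 above 0 and 6 below (median -0.009), and 20 of 32 tested genes without it were above 0 (median 0.08). Their median level was 29.9 FPKM with the motif and 18.3 without it. A match describes letters in this window and is no evidence that a factor binds there.

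**Figure D5:**
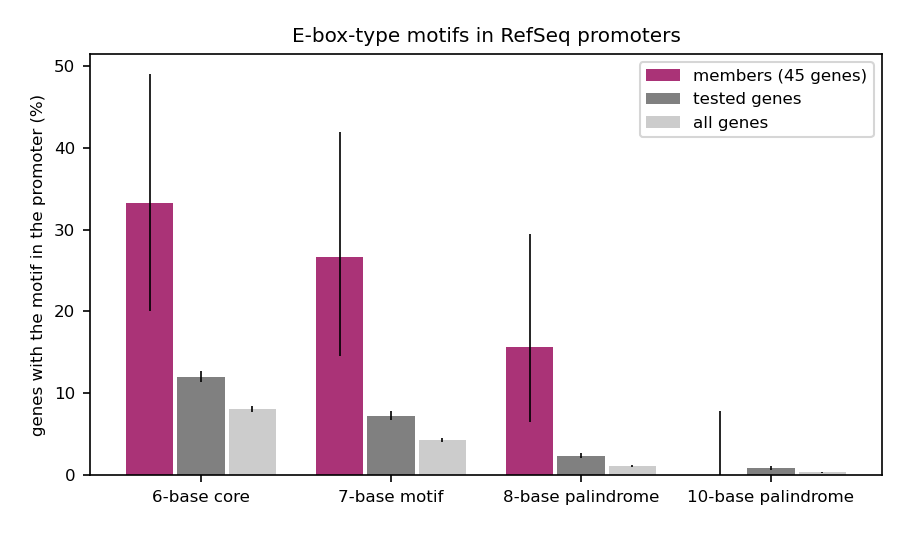
Share of genes, in percent, with each form of the TFE motif in at least 1 promoter, for the 45 genes of the set with a promoter (members), for tested genes and for all genes of the RefSeq table, with lines for the exact binomial 95% interval. The 7-letter form stands at 26.7% in the set, 7.25% in tested genes and 4.29% in all genes.

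Other genes of the pathway, 136 listed by function of which 133 were in the table and 128 were tested, gave no called gene by limma in either direction. Of the 128, 13 had an unadjusted p below 0.05 (10.2%; 6 higher and 7 lower), where the share of all tested genes was 16.4%; 74 were above 0 and 54 below, with a median of 0.03. The lowest adjusted p was that of Akt1s1, which encodes PRAS40, an inhibitor bound to mTORC1. It was at 20.9, 21.5 and 20.8 FPKM in the controls and 27.4, 26.9 and 26.0 in the knockout-labelled libraries, a clear gap with a log2 difference of 0.33 ± 0.07 (SE; adjusted p = 0.0544 by limma). Among the 31 tested genes of mTORC1 control, 19 were above 0 and 12 below. An unadjusted p below 0.05 was found for 3 of them (9.68%), all higher in the knockout-labelled libraries. These 3 were Akt1s1, Flcn and Nprl2. Flcn (adjusted p = 0.191 by limma) encodes the folliculin subunit of the complex that opens mTORC1 to TFEB. Nprl2 (adjusted p = 0.283 by limma) encodes part of GATOR1, a complex of amino acid signalling to mTORC1.

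Of 11 further tested pump subunits, 1 had an unadjusted p below 0.05 (9.09%, against 16.4% of all tested genes). It was Atp6v0b, a ring subunit related to Atp6v0c, with means of 53.6 ± 2.08 and 69.2 ± 6.15 FPKM (SD, n = 3 each). Its log2 difference was 0.36 ± 0.08 (SE, adjusted p = 0.0645 by limma). The fitted difference of Atp6v0d1 was thus opposite in sign to those of Atp6v0b and Atp6v1b2. Of 30 further hydrolases and activators, 1 was higher and 4 were lower at an unadjusted p below 0.05 (16.7%, near the share of all tested genes). Ctsf, a cysteine protease, had means of 33.6 ± 2.25 and 45.7 ± 6.73 FPKM (adjusted p = 0.0941), Lipa, the acid lipase of cholesteryl esters, 25.3 ± 2.35 and 20.3 ± 0.336 FPKM (adjusted p = 0.129), and Gm2a, the activator of beta-hexosaminidase A, 45.4 ± 5.50 and 36.9 ± 0.362 FPKM (SD, n = 3 each; adjusted p = 0.149, all by limma). Of 23 further membrane proteins, 12 had a difference above 0 and 11 below. Only 2 had an unadjusted p below 0.05 (8.7%), both lower: Litaf (adjusted p = 0.188 by limma) and Ostm1 (adjusted p = 0.301 by limma). Of 33 further autophagy genes, 21 had a difference above 0 and 12 below, and 1 was higher and 1 lower at an unadjusted p below 0.05 (6.06%). The higher one was Pink1, the kinase that marks damaged mitochondria, with means of 63.6 ± 4.80 and 76.9 ± 7.10 FPKM (adjusted p = 0.172 by limma). The lower one was Vmp1, a membrane protein of autophagosome formation, with 43.4 ± 2.14 and 36.7 ± 1.02 FPKM (adjusted p = 0.136 by limma, SD and n = 3 each for both genes).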

How the data were processed

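RNA was extracted with TRIzol-LS and 2 ng of total RNA went into SMART-Seq v4 libraries, per the labels' protocols. FastQC 0.11.5, STAR and edgeR, with GRCm38/mm10, are named in the submitters' processing notes, with no roles. The deposited file gives FPKM values per gene, as the authors made them; for the counting tool and annotation, the sources used here give no name. Gene positions and exon lengths came from GENCODE M21, which held every gene ID. The FPKM steps of genes of at most 400 exon bases gave each library's depth, with 98.7% to 99.5% of values whole to within 0.1 read; read numbers in the text are recovered this way.

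Genes that reached 1 FPKM in 3 or more libraries were tested with limma 3.58.1 (R 4.3.3) on log2(FPKM + 1) with a mean-variance trend, two-sided and Benjamini-Hochberg adjusted over all tested genes, with a threshold of 0.05. The pseudocount understates differences of low genes. The script was tested on simulated data. The genes, lists and tests were chosen with earlier results of these data known. Values in every library are given for genes with an unadjusted p below 0.05 and for the highest and lowest of each role group; further genes were named for lack of overlap or promoter motif. Of each list of other pathway genes, up to 3 with the smallest p are named. Near copies were searched with BLAST 2.17.0 (at least 200 bases, 95% identity). Promoters are RefSeq's, of GRCm38.p6.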

Additional observations from a re-analysis of the deposited data

How the results depend on the processing

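On the TPM scale 15 members were called higher, the other pathway genes had 18 calls higher and all genes 2016; the median differences were 0.268 for the members, 0.353 for the TFEB family and channels, 0.294 for the autophagy core, 0.144 for the pump, 0.13 for the membrane genes, 0.288 for the hydrolases and 0.228 for the other pathway genes, and Gabarap turned to 0.037 (adjusted p = 0.774). Tests over fewer genes gave 2 members lower, Cd68 and Mcoln2, both with a mean of at least 5 FPKM (4.35% of members, 3.22% of all genes called) and among protein-coding genes (3.77% and 2.7%; added after seeing the data); they gave 2 and 3 other pathway genes higher, 112 and 127 of all genes higher and 151 and 161 lower. Without a filter 8 genes were called higher and 16 lower, and without the mean-variance trend 24 and 65. Leaving out 1 library gave 16 to 38 genes higher and 43 to 77 lower, no member called, and medians of 0.039 to 0.088 for the members, 0.131 to 0.202 for the TFEB group and -0.101 to 0.088 for the pump, whose median was 0.009 with a mean of at least 5 FPKM. The TFEB group's median was 0.195 with a pseudocount of 0.1, 0.194 after quantile normalization and -0.049 with a mean of at least 5 FPKM, where only Mcoln1 and Mcoln2 are left; that of the hydrolases was 0.041 after quantile normalization. The Thbs1 difference was 0.187 to 1.264 with 1 library left out, the highest without control replicate 2. With the replicate number as a block, 27 genes were called higher and 54 lower and no member was called. Deviations of same-numbered libraries from their group means were not correlated (r = -0.11, 0.0372 and -0.0791). The labels do not say what the numbers mean, and such correlations cannot show whether the libraries were paired. The 10-base motif was in 0 member promoters. For single genes, 380 recomputed values kept their direction and their side of the threshold and 23 newly passed it. At 233 to 384 reads for Cd68 and 90 to 170 for Mitf, counting error adds to the spread of low genes.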
